A study of Mus musculus with 8 samples.

Results

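The nuclear factor I (NFI) family was followed through freshly isolated and culture-expanded skeletal myogenic progenitors of teratoma and adult muscle origin. Its members are Nfia, Nfib, Nfic and Nfix, taken by name as the whole family, and all 4 were among the 24980 genes of the count table and among the 17582 genes with enough reads to test. The cells came from mouse. TF were myogenic progenitors freshly sorted from teratomas that an EGFP-labelled mouse embryonic stem cell line had formed in irradiated and cardiotoxin-injured tibialis anterior muscles of immunodeficient, dystrophin-lacking NSG-mdx4Cv mice. TE were the same kind of cells grown in culture to passage 8, SF were endogenous satellite cells freshly sorted from adult muscle, and SE were satellite cells grown to passage 8. At fresh isolation, cells were gated on α7-integrin and VCAM-1 after removal of CD31+ and CD45+ cells. Expanded cells then grew on gelatin in a myogenic expansion medium. The study's main text states no second gate for the expanded cells that were sequenced. There were 2 libraries in each of the 4 groups. TF and TE trace to a single stem cell line, and the study describes the libraries of a group as biological replicates. Animal ages are not given in the sources used here.

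NFI proteins are transcription factors that bind, as homodimers or heterodimers, to DNA through a conserved N-terminal domain. Their full site is an inverted repeat of 2 arms, and a single arm is bound more weakly. In muscle the family is best known for Nfix, which is low in embryonic myoblasts and drives the switch to the fetal program, and which later acts in adult satellite cells and regeneration. Nfia is best known from gliogenesis, Nfib from maturation of the lung and from hair follicle stem cells, and Nfic from tooth root formation. The question asked of the 4 genes was whether these regulators of fetal to adult progression differed between TF, TE, SF and SE.

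In the GRCm38 annotation (GENCODE M21), Nfia lies on the plus strand of chr4:97772734-98118874 with 8 transcripts, and Nfib lies on the minus strand of chr4:82290173-82705750 with 12. Nfic lies on the minus strand of chr10:81396186-81455635 with 7 transcripts, and Nfix on the minus strand of chr8:84699876-84800344 with 8. RefSeq promoter windows (GRCm38.p6, 250 bases before to 50 bases after a start) matched 3 of the 4 members, Nfia, Nfic and Nfix, with 4 windows for Nfix. A window of each is given because the members did not move alike in culture. Capitals mark single NFI arms (TTGGC or GCCAA, both strands) and E-boxes (CANNTG), the motif of myogenic basic helix-loop-helix factors.
Nfia, chr4:97581693-97581992, plus strand: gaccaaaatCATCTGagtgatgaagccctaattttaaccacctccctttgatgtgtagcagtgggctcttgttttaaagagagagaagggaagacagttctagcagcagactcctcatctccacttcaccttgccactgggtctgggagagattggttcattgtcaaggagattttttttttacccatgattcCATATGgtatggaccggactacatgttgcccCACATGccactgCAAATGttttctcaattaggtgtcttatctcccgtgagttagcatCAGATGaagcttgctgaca
Nfic, chr10:81427124-81427423, minus strand: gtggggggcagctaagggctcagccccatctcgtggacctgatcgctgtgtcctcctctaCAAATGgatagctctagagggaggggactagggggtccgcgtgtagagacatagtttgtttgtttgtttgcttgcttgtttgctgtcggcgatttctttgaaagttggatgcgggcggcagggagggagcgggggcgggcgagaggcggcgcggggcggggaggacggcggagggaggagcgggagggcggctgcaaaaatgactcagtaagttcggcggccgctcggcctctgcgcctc
Nfix, chr8:84772826-84773125, minus strand: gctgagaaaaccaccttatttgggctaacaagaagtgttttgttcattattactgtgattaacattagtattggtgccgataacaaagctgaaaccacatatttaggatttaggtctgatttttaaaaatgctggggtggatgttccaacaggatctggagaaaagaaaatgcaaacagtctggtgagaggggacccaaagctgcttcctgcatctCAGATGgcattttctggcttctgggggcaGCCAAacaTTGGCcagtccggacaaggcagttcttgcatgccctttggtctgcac
The Nfia window lies far before the GENCODE start of Nfia (chr4:97772734), within the span of E130114P18Rik (chr4:97568133-97778078) on the other strand. The Nfic and Nfix windows lie inside their genes, not at the outermost GENCODE starts (chr10:81455635 and chr8:84800344). None of these windows is therefore taken as the main promoter of its gene. The Nfia window held 0 NFI arms and 5 E-boxes, and the Nfic window 0 arms and 1 E-box. The Nfix window held 2 arms, beginning at bases 246 and 254, and 1 E-box. The other Nfix windows held 1, 1 and 0 arms. Single arms occurred in 46.7% and E-boxes in 72.3% of the 32851 windows of the same length, so that matches of this kind are common. The full palindrome (TTGGC, 5 bases of any kind, GCCAA) was in no window of a member and in 0.0365% of all windows.

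Values are given as normalized counts, that is, deposited estimated counts divided by DESeq2 median-ratio size factors. A gene was called changed when edgeR's quasi-likelihood test gave a Benjamini-Hochberg adjusted p below 0.05 over all genes tested and the fold passed the minimum that the study used. Library totals ran from 11930961 to 21146632 estimated counts, and Rn45s, the ribosomal RNA precursor, took 7.99 to 21.3% of them. Replicates of every group differed by more than sampling noise, so that each library counted as a sample. Another scaling (median-ratio factors in place of TMM) shifted the median of all genes by -0.19 on the log2 scale in SE versus SF, by -0.16 in TF versus SF, by 0.21 in SF versus TE and by 0.14 in the difference between the culture effects. No member changed direction under it.

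Myogenic markers were read as a group of 8 (Pax7, Myf5, Myod1, Itga7, Vcam1, Cdh15, Des and Myog). Normalized counts summed to 21440 to 26510 in TF, 44660 to 45860 in TE, 34660 to 43390 in SF and 45680 to 63580 in SE. In any library, 0 of 8 were at zero. The sums joined opposite changes. In TE versus TF, 5 were called higher and 3 lower, against 9.86% and 16.2% of all genes tested. In SE versus SF, 3 were called in each direction, against 20.9% higher and 19.8% lower. Means of Pax7, Myf5 and Vcam1 were lower in both expanded groups than in the fresh group of the same origin. Means of the other markers were higher. Markers of other cells were also present in the fresh libraries. The 5 fibro-adipogenic markers summed to 27400 to 28120 in TF and 17840 to 28130 in SF, against 35.5 to 83.1 in TE and 41.2 to 58.7 in SE. Dcn, a matrix proteoglycan, had 9758 to 16120 in fresh and 0 to 57.7 in expanded libraries. Sums of the 5 pericyte and smooth muscle markers were 6072 to 7773 in TF, 13400 to 14810 in SF, 872 to 1004 in TE and 1565 to 1987 in SE. The 5 endothelial markers summed to 935 and 3674 in the TF libraries, 3577 to 4420 in SF, 4.63 to 10.5 in TE and 16.3 to 33.6 in SE, although the gate removes CD31+ cells. For the 5 haematopoietic markers the sums were 470 and 4497 in TF, 275 to 372 in SF, 13.9 to 44.2 in TE and 84.1 to 99.4 in SE. The 6 Schwann and glial markers summed to 1688 to 3718 in TF, where Gfap led, 1354 to 1654 in SF, 71.1 to 90.2 in TE and 106 to 165 in SE. The sum of the 5 neuronal markers went the other way. It was 57.8 to 347 in TF, 133 to 327 in SF, 1081 to 1328 in TE and 319 to 563 in SE. Stmn2, a microtubule regulator, led it in the expanded libraries, with means of 1095 in TE and 335 in SE. Tubb3 also had higher means in both expanded groups, whereas Elavl3, Elavl4 and Snap25 had lower ones than in the fresh group of the same origin. Pluripotent markers stayed at or below 173.

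**Figure D1:**
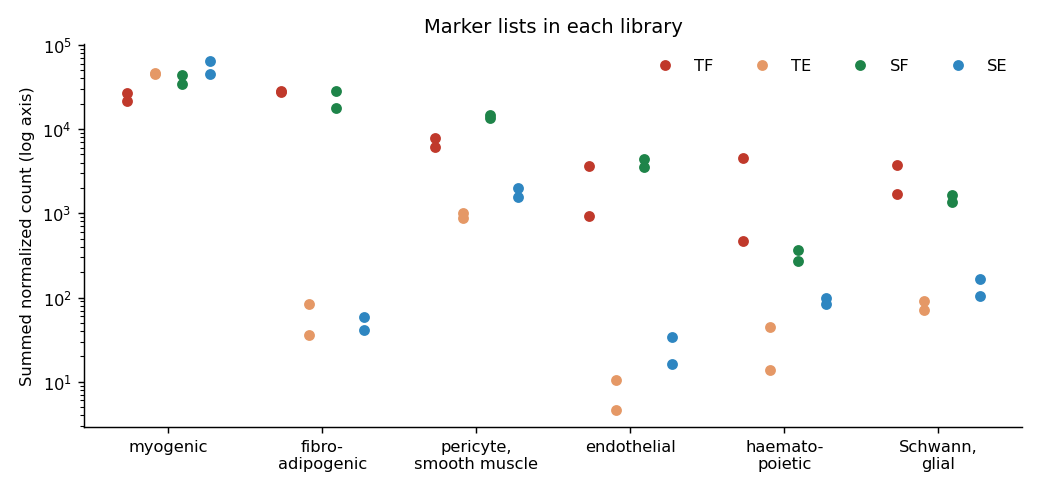
Summed normalized counts (log axis) of the myogenic list and of 5 lists for other cell types, with 1 point per library and colours for TF, TE, SF and SE. Fibro-adipogenic sums were 17840 to 28130 in the fresh libraries and 35.5 to 83.1 in the expanded ones, whereas myogenic sums were 21440 to 63580 in all libraries.

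Nfib separated the groups most widely among the 4 members. Its normalized count was 7711 and 8033 in the TF libraries, 3041 and 2739 in TE, 7196 and 8451 in SF, and 163.8 and 193.9 in SE. Both fresh groups were high and overlapped, TE was lower, and SE lay far below all others. The group means were 7872 ± 228 (SD, n = 2) in TF, 2890 ± 214 (SD, n = 2) in TE, 7824 ± 887 (SD, n = 2) in SF and 179 ± 21.3 (SD, n = 2) in SE. In order of level, TF and SF were neighbours that did not differ beyond their spread, TE came next, and SE last. The SE values rest on 229 and 226 reads, against 3553 or more in every other library.

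Nfia followed culture rather than origin. Normalized counts were 4470 and 4833 in TF, 1102 and 1021 in TE, 5089 and 5830 in SF, and 715.2 and 853 in SE. Every fresh library was above every expanded one. Means were 4652 ± 257 (SD, n = 2), 1061 ± 57.2 (SD, n = 2), 5460 ± 524 (SD, n = 2) and 784 ± 97.4 (SD, n = 2), in the same order of groups. From highest to lowest the groups were SF, TF, TE and SE, and neither the pair SF and TF nor the pair TE and SE passed the test.

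The Nfic transcript was highest in TF. It had normalized counts of 6312 and 7855 in TF, 3213 and 3238 in TE, 2385 and 2813 in SF, and 3811 and 4540 in SE. Here the fresh satellite cells held the lowest values. Its means were 7084 ± 1091 (SD, n = 2) in TF, 3225 ± 17.95 (SD, n = 2) in TE, 2599 ± 303 (SD, n = 2) in SF and 4175 ± 515 (SD, n = 2) in SE. The order was TF, SE, TE and SF, in which SE and TE, and TE and SF, were neighbours that did not pass the test.

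Nfix gave the highest counts of the family in the fresh teratoma cells. The libraries held 11970 and 14030 normalized counts in TF, 4814 and 4650 in TE, 6666 and 8851 in SF, and 3307 and 4079 in SE. The expanded groups lay near each other. Means were 13000 ± 1455 (SD, n = 2) in TF, 4732 ± 116 (SD, n = 2) in TE, 7759 ± 1545 (SD, n = 2) in SF and 3693 ± 546 (SD, n = 2) in SE. Of the neighbours in the order TF, SF, TE and SE, TF and SF passed the test, and SF and TE, and TE and SE, did not.

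**Figure D2:**
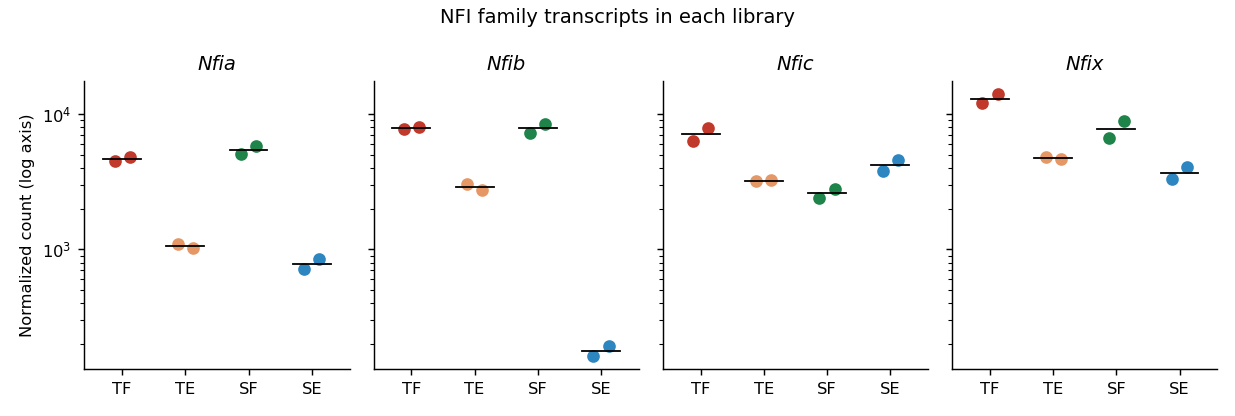
Normalized counts (log axis) of the 4 NFI genes, with 1 point per library and a line at each group mean. Nfib in SE, at 163.8 and 193.9, lies below every other point, and Nfic is the member whose SE libraries (3811 and 4540) lie above its SF libraries (2385 and 2813).

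To compare the members with each other, counts were divided by the mean length of their protein-coding transcripts, which was 6854 bases for Nfia, 5234 for Nfib, 2752 for Nfic and 2467 for Nfix. On this per-kilobase scale the summed NFI level was 9274 and 10780 in TF, 3861 and 3734 in TE, 5687 and 7076 in SF, and 2861 and 3465 in SE. No test of these sums was run. Nfix supplied 52.6% ± 0.29 (SD, n = 2) of that level in TF, 50.5% ± 0.0432 (SD, n = 2) in TE, 49.1% ± 2.25 (SD, n = 2) in SF and 47.3% ± 0.612 (SD, n = 2) in SE. Nfib supplied 15.1% ± 1.17 (SD, n = 2) in TF, 14.5% ± 0.732 (SD, n = 2) in TE and 23.5% ± 0.961 (SD, n = 2) in SF, but 1.08% ± 0.0171 (SD, n = 2) in SE. The share of Nfic was 25.6% ± 1.23 (SD, n = 2) in TF, 30.9% ± 0.899 (SD, n = 2) in TE, 14.8% ± 0.56 (SD, n = 2) in SF and 48.0% ± 0.556 (SD, n = 2) in SE. Nfia held 12.5% ± 0.732 (SD, n = 2) in SF and between 3.62% and 6.79% in the other groups. TE thus kept a makeup near that of TF at a lower sum, whereas SE consisted almost wholly of Nfic and Nfix. With the longest transcript or the union of exons as the length, Nfix stayed the largest share in TF, TE and SF, but in SE its order with Nfic depended on the length used (46.6% against 46.3%, and 41.3% against 51.8%).

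**Figure D3:**
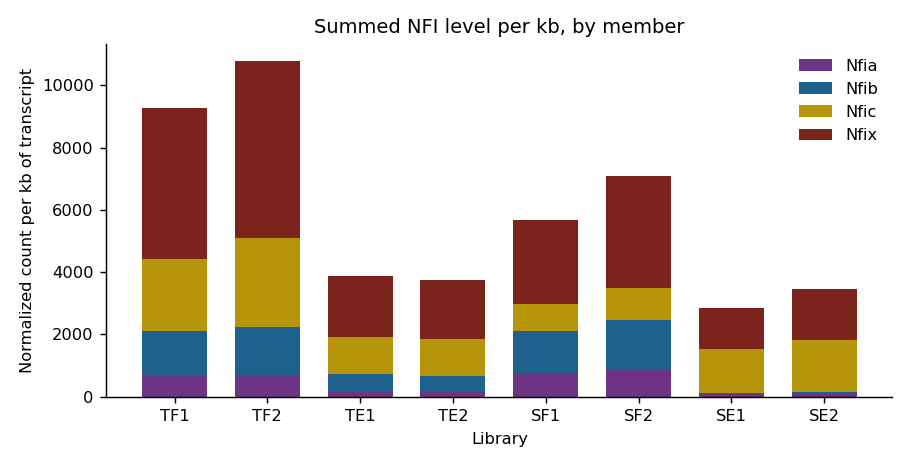
Stacked bars of the normalized count per kilobase of transcript for the 4 members in each of the 8 libraries. The whole bar runs from 2861 in an SE library to 10780 in a TF library, and the Nfib segment is 1.08% of the bar in SE on average.

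Among genes tested that have an annotated length, Nfix ranked between the percentiles 95.5 and 99.1 per kilobase in all libraries, and Nfic between 92.8 and 98.2. Nfib stood at 95.8 to 96.3 in fresh cells and 86.8 to 88.3 in TE, but at 39.3 to 40.1 in SE. Nfia stood at 89.8 to 91.9 in fresh and at 56.6 to 64.7 in expanded cells.

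Culture of teratoma-derived cells was examined first. In TE versus TF all 4 members were lower, where 16.2% of the genes tested were called lower and 9.86% higher. Nfia fell by 2.08 on the log2 scale (SE 0.191, edgeR adjusted p = 6.35e-05) and Nfix by 1.40 (SE 0.221, edgeR adjusted p = 0.00147). Nfib decreased by 1.39 (SE 0.191, edgeR adjusted p = 0.000661) and Nfic by 1.08 (SE 0.201, edgeR adjusted p = 0.00376). The median over the members was -1.40, beside -0.18 over all genes tested. All 4 calls held without each of the 8 libraries. Marker sums of other cell types moved with this comparison. The fibro-adipogenic sum went from 27400 or more to 83.1 or less and the Schwann and glial sum from 1688 or more to 90.2 or less. The neuronal sum went from 347 or less to 1081 or more, mostly through Stmn2, while Elavl3, Elavl4 and Snap25 had lower means in TE. The part of these markers in the NFI changes was not tested. In bulk libraries, fewer cells of a type and less RNA per cell cannot be told apart.

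The same culture step was then read in satellite cells. In SE versus SF, 3 members were lower and 1 was higher, where 19.8% of genes were called lower and 20.9% higher. Nfib fell by 5.26 (SE 0.227, edgeR adjusted p = 1.26e-06), a 38.4-fold difference, and Nfia by 2.61 (SE 0.195, edgeR adjusted p = 1.21e-05). Nfix dropped by 0.88 (SE 0.219, edgeR adjusted p = 0.0102), whereas Nfic rose by 0.87 (SE 0.201, edgeR adjusted p = 0.00691). The Nfix call was lost without SE replicate 1, where its log2 change was -0.73 with an edgeR adjusted p = 0.0558, and in a fit of only these 2 groups (edgeR adjusted p = 0.0542). The median of the members was -1.75, beside -0.23 over all genes. Here too the fibro-adipogenic sum went from 17840 or more to 58.7 or less and the endothelial sum from 3577 or more to 33.6 or less, and their part in the lower members was not tested. Nfic rose in the same comparison, and the part of these markers in its rise was not tested either.

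Whether the change with culture differed between the origins was tested directly, as the TE versus TF change minus the SE versus SF change. The test called 4.7% of genes higher and 9.62% lower. Nfib was called higher, with a difference of 3.87 (SE 0.277, edgeR adjusted p = 7.71e-05), at percentile 95 of all genes tested. Nfic was called lower, with a difference of -1.95 (SE 0.284, edgeR adjusted p = 0.00232). For Nfia the difference was 0.53 (95% CI -0.05 to 1.12, edgeR adjusted p = 0.213), and for Nfix -0.52 (95% CI -1.21 to 0.17, edgeR adjusted p = 0.305), so that neither an equal nor a moderately unequal change can be told from these data. The Nfib and Nfic calls held without each of the 8 libraries.

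**Figure D4:**
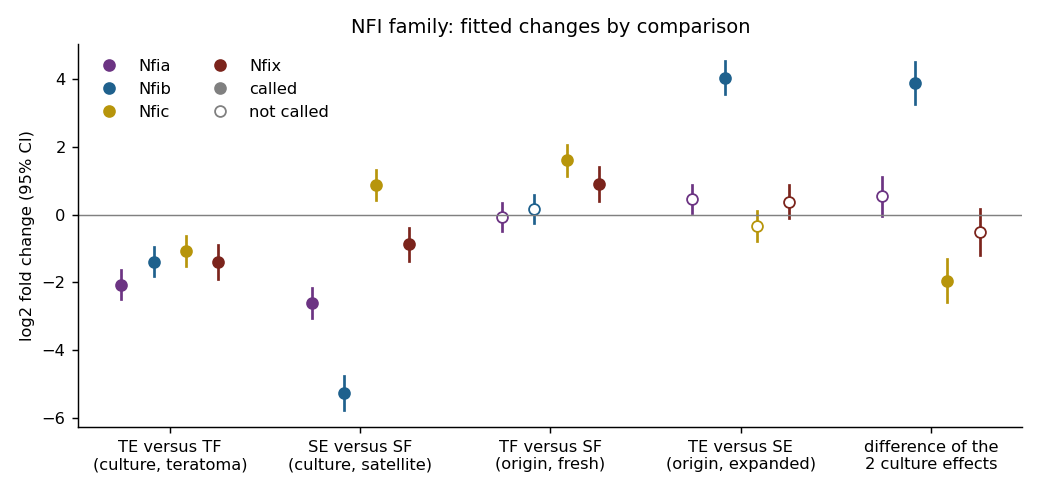
Fitted log2 fold changes of the 4 members in both culture comparisons, both origin comparisons and the difference between the culture effects. Points are estimates, bars are 95% CI, and filled points were called; Nfib stands at -5.26 in SE versus SF and at 4.04 in TE versus SE.

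Between the expanded cells of both origins a single member of the family was called. Nfib was higher in TE than in SE by 4.04 (SE 0.215, edgeR adjusted p = 2.03e-05), a 16.4-fold difference at percentile 97.8 of all genes tested, where 3.15% of genes were called higher and 4.07% lower. The estimate lay between 3.92 and 4.17 without each library. The fibro-adipogenic sum was 83.1 or less and the endothelial sum 33.6 or less in both groups. The pericyte and smooth muscle sum was lower in TE (872 to 1004) than in SE (1565 to 1987). That gap lay in Rgs5, with a mean of 0 in TE and 964 in SE. Myh11 and Abcc9 had higher means in TE (28.95 and 495.5) than in SE (3.29 and 379.4). The neuronal sum was higher in TE (1081 to 1328) than in SE (319 to 563), mostly through Stmn2 (means of 1095 and 335). The part of these markers in the Nfib difference was not tested. Nfia differed by 0.46 (95% CI 0.04 to 0.88, edgeR adjusted p = 0.202), Nfix by 0.38 (95% CI -0.11 to 0.87, edgeR adjusted p = 0.389) and Nfic by -0.35 (95% CI -0.80 to 0.10, edgeR adjusted p = 0.384). None of these passed the test, and their intervals leave room for differences up to the outer bounds given.

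**Figure D5:**
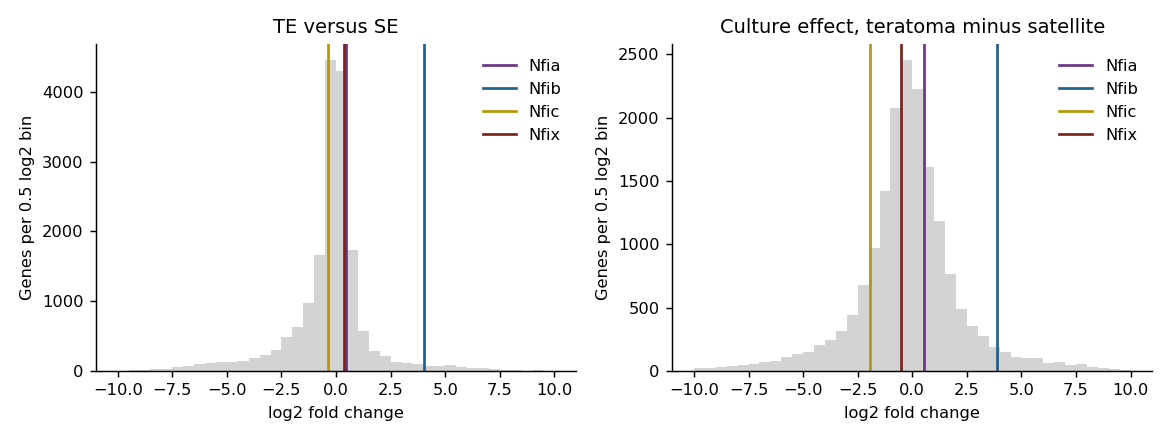
Number of genes tested per 0.5 log2 bin in TE versus SE and in the difference between the culture effects (teratoma minus satellite), with lines at the 4 members. Genes beyond the ends of the axis are not drawn; Nfib lies in the upper tail of both, at 4.04 and 3.87, and Nfic at -1.95 in the second.

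Between the fresh cells of both origins Nfic and Nfix were the members called. In TF versus SF, 15.1% of genes were called higher and 9.13% lower. Nfic was higher in TF by 1.60 (SE 0.204, edgeR adjusted p = 0.000748), a 3.04-fold difference, and Nfix by 0.90 (SE 0.219, edgeR adjusted p = 0.016). The Nfix call was lost without TF replicate 2, at 0.78 with an edgeR adjusted p = 0.104, and without SF replicate 1, at 0.67 with an edgeR adjusted p = 0.0726. Nfib differed by 0.17 (95% CI -0.25 to 0.59, edgeR adjusted p = 0.569). Nfia differed by -0.07 (95% CI -0.49 to 0.34, edgeR adjusted p = 0.816), and this sign turned without SF replicate 2. Other cell types were unequal here as well, with Gfap at 1342 and 3499 in TF against 22.9 and 18.3 in SF, and haematopoietic sums of 470 and 4497 against 275 to 372. TF replicate 2 had the higher Gfap and TF replicate 1 the higher haematopoietic sum. Their part in the Nfic and Nfix differences was not tested.

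Comparisons across the diagonal complete the order of the groups. In TF versus SE all 4 members were higher, where 14.5% of genes were called higher and 9.16% lower. Nfib led with 5.43 (SE 0.229, edgeR adjusted p = 1.93e-06), followed by Nfia with 2.54 (SE 0.195, edgeR adjusted p = 2.4e-05) and Nfix with 1.78 (SE 0.224, edgeR adjusted p = 0.000402). The Nfic value was 0.73 (SE 0.2, edgeR adjusted p = 0.0261), and its call was lost without TF replicate 2 (0.56, edgeR adjusted p = 0.174), without SE replicate 1 (0.59, edgeR adjusted p = 0.119) and without either TE library (0.73 in both, edgeR adjusted p = 0.0617 and 0.0616). In SF versus TE, where 23.6% of genes were called higher and 23% lower, Nfia was higher by 2.15 (SE 0.192, edgeR adjusted p = 3.01e-05) and Nfib by 1.22 (SE 0.19, edgeR adjusted p = 0.000713). Nfix at 0.50 (edgeR adjusted p = 0.0839) and Nfic at -0.52 (edgeR adjusted p = 0.0553) did not pass. The Nfix value was called without SF replicate 1 (0.71, edgeR adjusted p = 0.0281), and the Nfic value without SF replicate 2 (-0.70, edgeR adjusted p = 0.037), SE replicate 1 (-0.54, edgeR adjusted p = 0.0378) or SE replicate 2 (-0.52, edgeR adjusted p = 0.0357). These comparisons share libraries with those above.

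Genes that control Nfix during fetal myogenesis were read as a group of 6. Pax7, the satellite cell transcription factor, and Junb, an AP-1 subunit, activate Nfix, while Rhoa and its kinases Rock1 and Rock2 act to hold it low. The kinase gene Mapk3 was also in the list, and no direction of its action on Nfix is assumed here. Shares of all genes called, given above for each comparison, apply to the list counts here and below. In TE versus TF, 0 of the 6 were higher and 3 were lower, against 9.86% and 16.2% of all genes. Their median was -0.49 beside -0.18 over all genes. The 3 lower genes were Pax7, which fell by 1.49 (edgeR adjusted p = 0.00361), Junb, by 4.79 (edgeR adjusted p = 3.29e-06), and Mapk3, by 0.84 (edgeR adjusted p = 0.0297). In SE versus SF, 0 were higher and 3 were lower, against 20.9% and 19.8% of all genes, with a median of -0.68 beside -0.23. The lower genes were Pax7, at -1.38 (edgeR adjusted p = 0.00325), Junb, at -5.25 (edgeR adjusted p = 1.86e-06), and Rock1, at -0.98 (edgeR adjusted p = 0.00545). Pax7 had normalized counts of 3067 and 4914 in TF, 1503 and 1241 in TE, 4046 and 4581 in SF, and 1743 and 1174 in SE, so that the expanded groups overlapped, unlike Nfib. Between TE and SE edgeR called 0 of the 6 in either direction, with 0 at an unadjusted p below 0.05 and 0 by DESeq2. Over all genes only 3.15% were called higher and 4.07% lower there, so that 0 of 6 does not set this group apart. For the difference between the culture effects edgeR also called 0, against 4.7% of all genes higher and 9.62% lower. An unadjusted p below 0.05 was found for 2 higher and 1 lower, and DESeq2 called 2 higher. At an unadjusted p below 0.05, 1 of the 6 was higher in each culture comparison, and DESeq2 called 1 higher in TE versus TF and 0 in SE versus SF. In TF versus SF, Mapk3 was higher by 1.12 (edgeR adjusted p = 0.01), and Rock1, at -1.11 (edgeR adjusted p = 0.00601), and Rock2, at -1.28 (edgeR adjusted p = 0.00372), were lower. Junb is also 1 of 7 immediate early genes, a class that dissociation of tissue induces. All 7 were lower in TE than TF and in SE than SF, and their summed normalized counts were 169800 or more in fresh and 8380 or less in expanded libraries.

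Partners and targets of Nfix in muscle were read as a group of 8. Mef2a and the kinase gene Prkcq act with Nfix at muscle creatine kinase (Ckm), Eno3 encodes the muscle enolase, and Nfix holds down slow myosin (Myh7) through Sox6 and Nfatc4 as well as myostatin (Mstn), the inhibitor of muscle growth. In TE versus TF, 4 were higher and 2 lower, against 9.86% and 16.2% of all genes (median 1.65, beside -0.18). The 4 were Mef2a at 2.10 (edgeR adjusted p = 0.000501), Eno3 at 3.45 (edgeR adjusted p = 4.67e-06), Myh7 at 4.99 (edgeR adjusted p = 0.000226) and Mstn at 3.83 (edgeR adjusted p = 0.0198). In SE versus SF the count was again 4 higher and 2 lower, against 20.9% and 19.8% of all genes (median 1.84, beside -0.23). The 4 called higher were Mef2a at 2.17 (edgeR adjusted p = 0.000249), Eno3 at 4.40 (edgeR adjusted p = 1.37e-06), Myh7 at 7.61 (edgeR adjusted p = 2.52e-05) and Mstn at 6.17 (edgeR adjusted p = 0.0016). Prkcq was lower in both, from 534.9 or more in the fresh libraries to 0 in both TE libraries and to 0 and 25.7 in SE. Sox6, a repressor of slow fibre genes, was lower only by the satellite comparison's test, at -1.68 (edgeR adjusted p = 0.0262), against 0.32 (edgeR adjusted p = 0.668) in the teratoma comparison, and the difference of the effects did not pass (2.00, edgeR adjusted p = 0.095). Ckm was called in neither.

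Nfatc4 was the gene of this group that set TE apart. It had 354.4 and 537.7 normalized counts in TF, 36.7 and 29.3 in TE, 168.2 and 221.2 in SF, and 144.5 and 208.5 in SE. Only the TE libraries were low, the others lying at 144.5 or more. It fell by 3.70 in TE versus TF (edgeR adjusted p = 0.00028), and the difference between the culture effects was -3.74 (edgeR adjusted p = 0.00303). TE was below SE by a log2 value of -2.39 (edgeR adjusted p = 0.00877). The other gene of this group called between TE and SE was Eno3, at -0.83 (edgeR adjusted p = 0.0197). The difference between the culture effects also called Eno3, at -0.95 (edgeR adjusted p = 0.036), and Myh7, at -2.62 (edgeR adjusted p = 0.0401), so that 3 of the 8 were lower and 0 higher by edgeR (median -1.64, beside -0.18). At an unadjusted p below 0.05, 4 were lower and 1 higher, and DESeq2 called 3 lower and 1 higher. Between the fresh groups, 1 of the 8 was called, Nfatc4, higher in TF by 1.35 (edgeR adjusted p = 0.0346).

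A fetal growth group of 11 genes and the 6 sarcomeric myosin heavy chains were read beside the members. Of the growth genes, 4 were higher and 1 lower in TF versus SF, against 15.1% and 9.13% of all genes (median 1.46, beside 0.08). The higher ones were led by Dlk1, a paternally expressed membrane protein, at 6.01 (edgeR adjusted p = 5.99e-05), and Igf2, the fetal growth factor, at 5.52 (edgeR adjusted p = 0.000164). In TE versus SE, 2 were higher, Igf2bp1 at 4.28 (edgeR adjusted p = 0.033) and Igf2 at 2.01 (edgeR adjusted p = 0.0198), and 3 were lower (median -0.51, beside -0.00339). Of those 3, H19 had 0 counts in both TE libraries and 126000 or more normalized counts in SE, and Mest was lower by a log2 value of -8.11 (edgeR adjusted p = 4.07e-05). The culture comparisons called 2 higher and 4 lower in TE versus TF and 6 higher and 1 lower in SE versus SF. Among the myosins, 3 were higher and 1 lower in TF versus SF, led by neonatal Myh8 at 7.49 (edgeR adjusted p = 0.00148) and embryonic Myh3 at 7.02 (edgeR adjusted p = 0.000551). In TE versus SE, 1 was higher and 2 were lower, with fast Myh1 at -4.74 (edgeR adjusted p = 0.000348). The fresh teratoma cells, with the higher Nfix and Nfic, also had the higher counts of Myh3, Myh8, Igf2 and Dlk1, the genes with the largest called changes. Means of Myh4, Igf2bp2, Lin28b and Hmga2 were instead lower in TF than in SF. They were 274 against 1588 for Myh4 and 428 against 865 for Igf2bp2.

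Genes whose pattern over the 8 libraries was nearest to each member were ranked by the root mean square difference of centred log2 values among 12680 genes; this is a description over few libraries. Nearest to Nfia were Add3 (0.172), Dlc1 (0.196) and Kif13b (0.202). Add3, which encodes the membrane skeleton protein adducin 3, had mean normalized counts of 2004 in TF, 391 in TE, 2260 in SF and 290 in SE. Nearest to Nfib were A230050P20Rik (0.393), Eng (0.428) and Ifih1 (0.468). Eng encodes endoglin, a TGF-β co-receptor, and held 638.8 and 622.9 normalized counts in TE but 40.8 and 37.8 in SE. Ifih1, the cytosolic RNA sensor MDA5, held 106.3 and 80.9 in TE and 10.7 and 10.3 in SE. Nearest to Nfic were Emc10 (0.130), Gde1 (0.160) and P4hb (0.171), of which P4hb encodes protein disulfide isomerase. Nearest to Nfix were Ginm1 (0.122), Cyth3 (0.164) and Gab2 (0.166). The distances for Nfib were larger than for the other members. Values were centred but not scaled, so that a distance can grow with a member's range, which was widest for Nfib. The match of pattern shape was not compared.

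Of 10 annotated genes that overlap the members, 5 are rows of the count table, and the others were not analysed here. E130114P18Rik, on the opposite strand and sharing 5345 bases with the Nfia locus, had 144.1 and 171.0 normalized counts in TF, 68.1 and 53.2 in TE, 28.0 and 3.42 in SF, and 0 in both SE libraries. These were at most 171.0 where Nfia had 715.2 or more. Gm11266, antisense to Nfib, reached 14.8, Gm16104, antisense to Nfic, 27.5, Mir1191b, inside Nfic, 12.9, and Lyl1, inside Nfix on the other strand, 29.3. The library kit marks strand, but use of strand in counting is not given in the sources used here, so that reads of these pairs may not be told apart.

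As a last description, 7 genes of the table carry the full NFI palindrome in a promoter window, and 6 of them were tested. A pair of these sites is shown to give the form of the full motif, with the arms in capitals.
Galt, chr4:41755481-41755495, plus strand: TTGGCgactaGCCAA
Gstm7, chr3:107931860-107931874, minus strand: TTGGCactcaGCCAA
Of the 6, 1 was called higher in TE versus TF, 0 in either direction in SE versus SF, TF versus SF and TE versus SE, and 2 were called higher in SF versus TE. DESeq2 called 3 lower in TE versus TF and also 0 in the comparisons with 0, where an unadjusted p below 0.05 was found for 1 higher in SE versus SF, for 1 lower in TE versus SE and for 0 in TF versus SF. Their median was -1.65 in TE versus SE, beside -0.00339 over all genes tested, of which 3.15% were called higher and 4.07% lower there. A match is not a bound site, and the 7 genes summed to only 186 to 906 normalized counts in a library.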

How the data were processed

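RNA of 8 sorted or cultured mouse cell samples (4 groups of 2, grouped by title and passage label) was sequenced with a stranded total RNA kit for low input, paired end. The submitters' processing notes name kallisto 0.44.0 and CASAVA and the builds GRCm38 and mm10. The values deposited by the authors are estimated counts per gene, not normalized, and they were rounded here. How transcripts were summed to genes, and whether counting used strand, is not given in the sources used here. Estimated reads of isoforms and near-identical sequence may be split among genes. The column for each library was matched by title, and 0 columns were left unassigned.

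Genes passing filterByExpr (17582 of 24980) entered 1 edgeR 4.0.16 quasi-likelihood fit over the 4 groups (R 4.3.3, TMM, no replicate block, Benjamini-Hochberg over all genes tested). Calls needed an adjusted p below 0.05 and a fold above 1.25, the thresholds of the study. Levels used DESeq2 1.42.0 size factors. Lengths were the mean of protein-coding transcripts in GENCODE M21 and covered 98.7% of genes tested. Nearest genes needed a mean of at least 50 normalized counts (log2 with a pseudocount of 1) and the 3 nearest are named. From the other lists, the genes with the largest called changes are named, up to 2 in each direction. The fit was tested on simulated data. Alternatives were median-ratio factors, no filter, DESeq2, only the groups compared, a replicate block, each library left out, other transcript lengths and TMM values for the nearest genes. The list of Nfix regulators leaves out 1 gene, which is not reported here. The members and gene lists were chosen with earlier results of these data known. Totals of 11930961 to 21146632 set the precision of each count.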

Additional observations from a re-analysis of the deposited data

Results flagged for a closer look

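The change with culture differed between the origins for 2 members, by the interaction term of the edgeR fit. For Nfib the difference, TE versus TF minus SE versus SF, was 3.87 on the log2 scale (edgeR adjusted p = 7.71e-05), since it fell by 1.39 in teratoma-derived cells and fell by 5.26 in satellite cells. For Nfic it was -1.95 (edgeR adjusted p = 0.00232), since it fell by 1.08 in teratoma-derived cells and rose by 0.87 in satellite cells. Each rests on 2 libraries a group.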

How the results depend on the processing

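Of 28 member comparisons, 129 of 136 values under other settings and 212 of 224 values with a library left out kept their call. In a fit of only the groups compared, Nfix in SE versus SF was -0.88 (edgeR adjusted p = 0.0542) and Nfic in TF versus SE 0.73 (0.0575), both no longer called, and Nfic in SF versus TE was called at -0.52 (0.042). The replicate block called Nfic in SF versus TE at -0.53 (edgeR adjusted p = 0.0484) and changed no other member call. Same-numbered deviations correlated between -0.0337 and 0.0172 over 12681 genes, so that no shared deviation was seen. This does not settle how same-numbered libraries were prepared, which is not given in the sources used here. Nfix in SF versus TE was called with median-ratio factors at 0.71 (edgeR adjusted p = 0.0194) and by DESeq2 at 0.71 (adjusted p = 0.00125), and Nfia in the difference between the culture effects by DESeq2 at 0.67 (adjusted p = 0.0394). Without 1 library each, the ranges were -1.10 to -0.62 for Nfix in SE versus SF, -0.21 to 0.053 for Nfia in TF versus SF (turned without SF replicate 2, at 0.053), 0.67 to 1.15 for Nfix in TF versus SF, 0.56 to 0.88 for Nfic in TF versus SE, -0.70 to -0.39 for Nfic in SF versus TE and 0.23 to 0.71 for Nfix in SF versus TE, and 1 to 2 members were called in TF versus SF. The cause of these changes was not tested. All 12 nearest genes stayed nearest with TMM values. A scaling factor shifts a gene and a member alike and nearly cancels in their distance, so that this result was largely fixed in advance. Transcript length moved Nfia's share in SF from 12.5% to 17.6% and 20.4%.

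Counts over all genes moved more. Higher calls in TE versus TF were 1733, and 2694 in a fit of only these groups. In TE versus SE, 553 higher and 715 lower became 902 and 1358 with no filter and 900 and 1263 by DESeq2. In TF versus SF, 2655 higher and 1606 lower became 2112 and 1943 with median-ratio factors and 2510 and 2643 by DESeq2. DESeq2 also turned 3677 higher and 3475 lower in SE versus SF into 3366 and 4870, and 4157 and 4042 in SF versus TE into 5550 and 3535. The difference between the culture effects had 826 higher and 1691 lower, against 1284 and 2362 with no filter and 1544 and 1975 by DESeq2. Leaving out a library also lowered such counts: without TE replicate 1 or 2, higher calls were 690 and 667 in TE versus TF, 167 and 170 in TE versus SE, and 348 and 368 in the difference between the culture effects; without TF replicate 1 or 2 they were 936 and 815, 408 and 376, and 462 and 438. The Nfib calls held in each of these fits.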
